A study of Mus musculus with 9 samples.

Results

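Autophagy delivers cytoplasm, protein aggregates and worn organelles to the lysosome for breakdown. The autophagy machinery and its lysosome regulators were followed here as 39 genes of the deposited count table, taken by gene name, out of 54532 genes. All 39 passed the filter on low counts, as did 17546 genes in all. No measured value served as a rule for the choice by name, although earlier results of these data were known when it was made. RNA was taken from the hypothalamus, which governs hunger and energy use, of wild-type male ICR mice, an outbred stock, on postnatal day 21. HA pups had dams fed high fat and high sucrose, with fat giving 45% of energy, and were injected with 4-PBA, known as a chemical chaperone and histone deacetylase inhibitor. HP pups had dams fed in the same way and were injected with PBS. LP pups had dams fed a low-fat diet, with 10% of energy from fat, and were also injected with PBS. Diet and compound were not fully crossed, since no group here paired the low-fat diet with 4-PBA. Injections ran daily over postnatal days 4 to 16 in all groups, and dams ate their diet for 5 weeks before mating, then through pregnancy and lactation. In all groups the females were 5 weeks old when this feeding began, and litter size was 10 pups. Each group had 3 libraries.

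In the textbook account, the ULK kinase complex starts an autophagosome when nutrients are scarce, and the class III PI3-kinase complex then marks its membrane with the lipid PI3P. Small ubiquitin-like ATG8 proteins, the LC3s and GABARAPs, are coupled to that membrane by ATG conjugation enzymes and bind receptors that carry cargo. The MiT/TFE transcription factors, TFEB among them, switch on lysosome and autophagy genes. In the mouse hypothalamus, autophagy in feeding neurons is known to affect food intake and body weight. Much of this control acts on proteins by phosphorylation, lipid coupling and turnover, none of which transcript counts measure.

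Total counts per library lay between 18226924 and 21823961, and members held between 108 and 13616 counts in a library. The 39 members together took 0.408% to 0.416% of all counts in each of the 9 libraries. All 10 hypothalamic neuropeptide markers were detected in every library, with sums of 1059 to 1393 CPM (counts scaled to library size) in HA, 1168 to 1335 CPM in HP and 1091 to 1290 CPM in LP. Some libraries stood apart on markers of other tissue. The 5 meningeal fibroblast markers had sums of 865 CPM in HA replicate 3 and 356 CPM in LP replicate 3, while the remaining 7 libraries lay at 65.3 to 121 CPM. The 5 striatal neuron markers had sums of 163 and 238 CPM in LP replicates 1 and 2 and of 66.7 to 84.2 CPM elsewhere. Oligodendrocyte markers ranged over 11339 to 19182 CPM in HA, 16717 to 19993 CPM in HP and 12909 to 20129 CPM in LP. In whole tissue, fewer cells of a type and less RNA per cell cannot be told apart. Library titles carry codes that differ between the diets, so against LP the effects of code and diet cannot be told apart.

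No member was called in any comparison, and the levels of most members were tight. On the scale of deposited FPKM, which divides counts by gene length, the means over 9 libraries spanned 1.12 FPKM for Mitf to 247 FPKM for Gabarapl1, a ratio of 221. Of the 39 members, 21 lay above 10 FPKM and 10 under 5 FPKM. The median member stood at 10.9 FPKM, against 4.48 FPKM for the median gene tested. The order of roles was wide but the libraries of a gene lay close together.

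**Figure D1:**
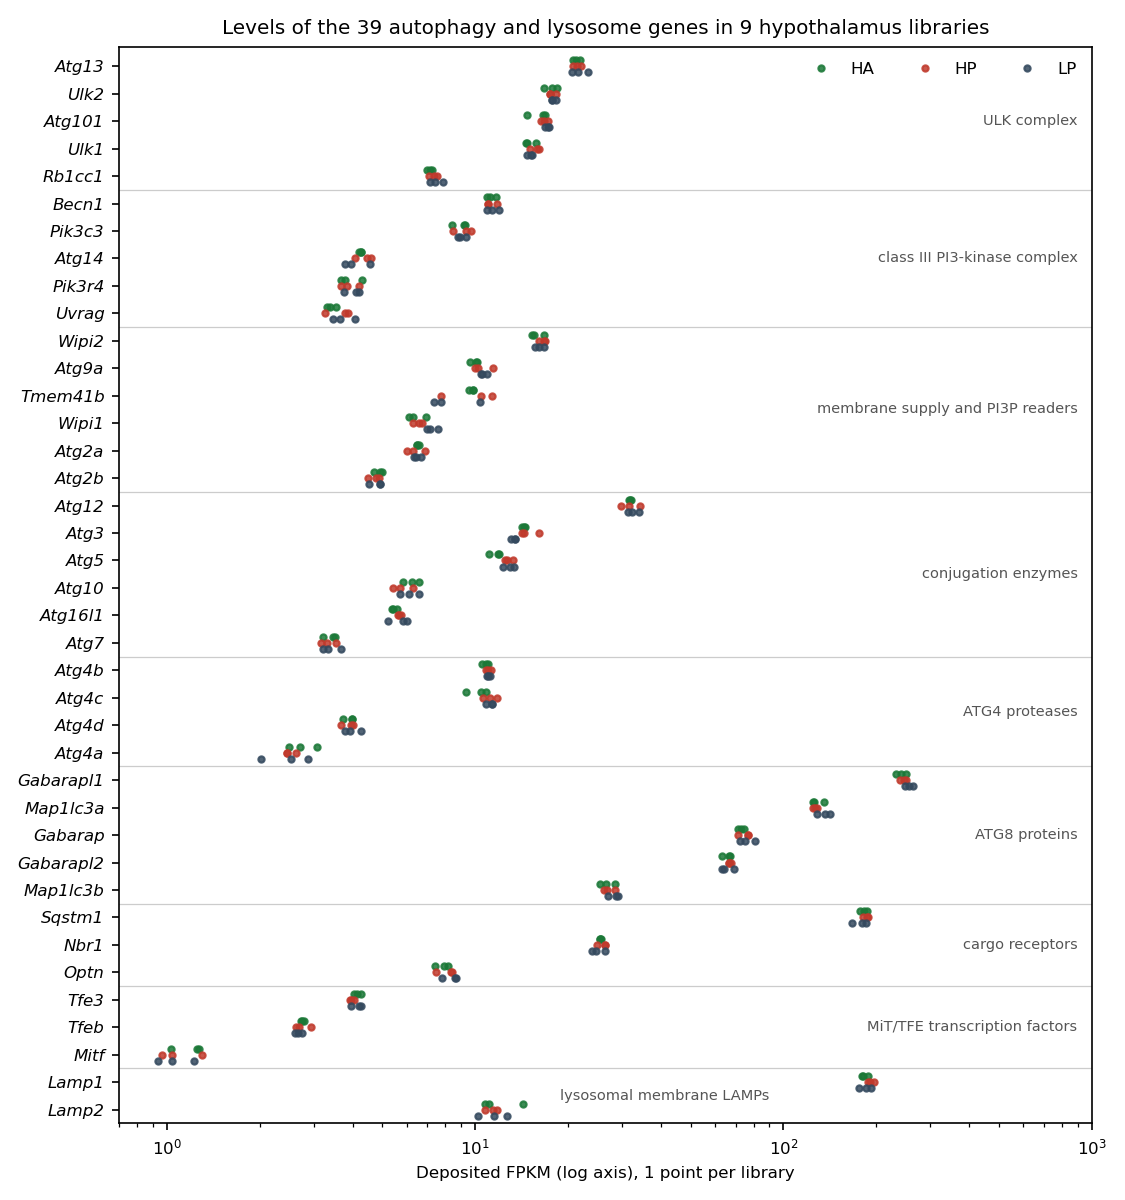
Deposited FPKM (log axis) of the 39 members, ordered by role and within a role by mean, with 1 point for each of 9 libraries; HA points are drawn above HP points and LP points. Means run from 1.12 FPKM for Mitf to 247 FPKM for Gabarapl1, and the 9 points of a gene lie close together on this scale, with the widest spread for Tmem41b.

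The ULK complex, which joins the kinases Ulk1 and Ulk2 with the scaffold Rb1cc1 (FIP200) and with Atg13 and Atg101, was expressed at 7.31 FPKM for Rb1cc1 to 21.5 FPKM for Atg13. Ulk1, the kinase that AMPK and mTORC1 act on, stood at 95.3, 102 and 96.5 CPM in HA, 103, 98.1 and 105 CPM in HP, and 98.7, 99.3 and 95.5 CPM in LP. The 3 groups overlapped. In HP against LP its level differed by 4.27%, with a 95% interval of -2.54% to 11.6% (log2 fold change 0.06, SE 0.044, edgeR adjusted p = 0.886). Log2 estimates of the other 4 subunits lay between -0.037 and -0.019 in HP against LP, and all 5 estimates in HA against HP lay between -0.062 and -0.006. Part of the exons of Rb1cc1, 3.80%, overlap an antisense gene.

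In the class III PI3-kinase complex, Pik3c3 (VPS34) is the catalytic subunit, Pik3r4 (VPS15) its regulatory partner and Becn1 (Beclin 1) the subunit through which many regulators act. Atg14 directs the complex to forming autophagosomes and Uvrag to endosomes. Becn1 stood at 82.9, 79.1 and 77.9 CPM in HA, 78.3, 83.2 and 77.8 CPM in HP, and 80.3, 85.1 and 77.5 CPM in LP. All 3 groups shared the same range. The interval of Becn1 in HP against LP was -8.9% to 6.56% (log2 fold change -0.02, SE 0.051, edgeR adjusted p = 0.967). Exons of Becn1 overlap those of Cntd1 on the other strand over 3104 bases, or 43.9% of their length, which makes the count of Becn1 uncertain there. Cntd1 had a mean of 4.56 counts against 1570 for Becn1. Uvrag had the widest spread of the 5 subunits, with a coefficient of variation (CV) of 7.74% over the 9 libraries, and 17.6% of its exonic length overlaps an antisense gene.

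Among genes that supply membrane or read PI3P, Atg9a encodes the scramblase of the seed vesicles, Atg2a and Atg2b lipid transfer proteins, Tmem41b a scramblase of the endoplasmic reticulum, and Wipi1 and Wipi2 proteins that bind PI3P. Tmem41b had the widest spread of all 39 members, with a CV of 15.1%. It stood at 56.1, 57.8 and 58.3 CPM in HA, 66.8, 45.7 and 61.7 CPM in HP, and 45.7, 61.3 and 43.3 CPM in LP. HP replicate 2 and LP replicates 1 and 3 were low, and the other 6 libraries lay at 56.1 CPM or above, so low libraries occurred in both HP and LP and in none of the 3 of HA. The estimate for HP against LP was accordingly loose, 15.8% with an interval of -8.06% to 45.8% (log2 fold change 0.21, SE 0.149, edgeR adjusted p = 0.886). The log2 estimate was 0.10 without HP replicate 1, 0.12 without LP replicate 3, 0.36 without HP replicate 2 and 0.38 without LP replicate 2. A pseudogene, Gm6223, matched the Tmem41b transcript with 99.2% identity over 871 bases, which makes the count of Tmem41b uncertain there. Gm6223 had a mean of 15.2 counts against 1077 for Tmem41b.

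Wipi1 stood at 30.7, 26.8 and 27.8 CPM in HA, 29.8, 29.0 and 27.8 CPM in HP, and 30.8, 33.5 and 31.6 CPM in LP. Every HA and every HP library lay below every LP library. In HA against LP the log2 fold change of Wipi1 was -0.17 (SE 0.070, unadjusted p = 0.0368, edgeR adjusted p = 0.756). In HP against LP it was -0.15 (SE 0.070, edgeR adjusted p = 0.823). Atg9a stood at 58.7, 57.9 and 55.9 CPM in HA, 66.1, 59.0 and 57.9 CPM in HP, and 60.9, 63.3 and 60.5 CPM in LP. The HA libraries lay below the LP libraries and touched the range of HP. In HA against HP the log2 fold change of Atg9a was -0.08 (SE 0.058, edgeR adjusted p = 0.84), and -0.03 without HP replicate 1, the highest library. Exons of Atg9a overlap those of Gm29253 on the same strand over 31.8% of their length, which makes the count of Atg9a uncertain there. Gm29253 had a mean of 0 counts against 1173 for Atg9a. Wipi2, at 16.2 FPKM, was the highest gene of this role.

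The conjugation enzymes work in a chain like that of ubiquitin. Atg7 activates ATG12 and the ATG8 proteins, Atg10 passes ATG12 to ATG5, Atg3 passes ATG8 proteins to the lipid, and Atg16l1 places the ATG12-ATG5 conjugate on the membrane. Atg3 had the smallest p of the 39 members in HP against LP. It stood at 51.0, 45.6 and 45.0 CPM in HP and 41.3, 42.6 and 42.6 CPM in LP, and all HP libraries lay above all LP libraries. The HA libraries, at 45.4, 45.9 and 45.2 CPM, also lay above LP. The difference of HP from LP was 11.8%, with an interval of 2.23% to 22.3% (log2 fold change 0.16, SE 0.058, unadjusted p = 0.0196), and did not pass over all genes (edgeR adjusted p = 0.792). Without HP replicate 1, the highest library, the log2 fold change in edgeR was 0.10, with an unadjusted p of 0.093. For HA against LP the log2 estimate was 0.11 (SE 0.058, edgeR adjusted p = 0.809).

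Atg5 stood at 28.0, 28.2 and 26.3 CPM in HA, 29.8, 31.4 and 29.5 CPM in HP, and 29.1, 31.6 and 30.6 CPM in LP. All HA libraries lay below all others, while HP and LP shared a range. Atg5 had the smallest p of the members in HA against HP, with a difference of -8.99% and an interval of -17.3% to 0.21% (log2 fold change -0.14, SE 0.062, edgeR adjusted p = 0.84), and in HA against LP its log2 fold change was -0.15 (SE 0.062, unadjusted p = 0.0393, adjusted p = 0.756). Atg12 was the highest gene of this role, at 32.0 FPKM, and Atg7 the lowest, at 3.38 FPKM.

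The 4 ATG4 proteases trim new ATG8 proteins and free them from lipid. Atg4b, the most active of them in mammals, had the smallest CV of all members, 1.86%, with 87.4 to 91.1 CPM in HA, 90.1 to 93.1 CPM in HP and 90.9 to 92.8 CPM in LP. Atg4c stood at 36.4, 35.1 and 31.4 CPM in HA, 39.5, 35.7 and 37.5 CPM in HP, and 36.6, 38.1 and 38.1 CPM in LP. HA lay below LP in every library and overlapped HP. Its log2 fold changes were -0.13 (SE 0.068) in HA against HP and -0.13 (SE 0.068) in HA against LP, with edgeR adjusted p of 0.84 and 0.8. Without HA replicate 3, the lowest library of Atg4c, they were -0.07 in both comparisons. Atg4a was scarce, at 5.41 to 8.2 CPM over the 9 libraries, and its transcript matched a pseudogene, Atg4a-ps, with 99.3% identity over 2115 bases, and the expressed gene Syt6 with 99.4% identity over 508 bases. Mean counts were 134 for Atg4a, 3.44 for Atg4a-ps and 754 for Syt6, so the count of Atg4a is uncertain. Exons of Atg4d overlap Kri1 on the other strand over 19.3% of their length. In FPKM, Atg4b and Atg4c gave 38.6% each of the ATG4 sum in the median library, Atg4d 13.9% and Atg4a 8.92%. These shares depend on the deposited lengths, which sum all annotated exons, at 8278 bases for Atg4b and 3351 bases for Atg4c. Mean counts were 1775 for Atg4b and 713 for Atg4c.

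The ATG8 proteins coat the autophagosome and tether its cargo. Gabarapl1 gave 44.5% to 46.7% of the summed ATG8 FPKM in each library, Map1lc3a 23.2% to 24.9%, Gabarap 12.9% to 14.4%, Gabarapl2 11.1% to 12.6% and Map1lc3b 4.8% to 5.24%. The shares did not change their order in any library. Map1lc3b, which encodes the LC3B of standard autophagy assays, was the lowest of the 5 per length although it had more counts than Map1lc3a, Gabarap and Gabarapl2. Its deposited length of 7517 bases, against 1181 to 2325 bases for the other 4, sums all annotated exons and lowers its FPKM. In FPKM, Gabarapl1 averaged 241 ± 9.56 in HA, 245 ± 5.39 in HP and 255 ± 8.04 in LP, and Map1lc3b 26.8 ± 1.55 in HA, 27.2 ± 1.21 in HP and 28.2 ± 1.09 in LP (SD, n = 3 each).

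Gabarapl1 stood at 506, 487 and 469 CPM in HA, 496, 483 and 506 CPM in HP, and 531, 500.1 and 515 CPM in LP, so the groups overlapped. Map1lc3a stood at 161, 147 and 149 CPM in HA, 149, 147 and 152 CPM in HP, and 161, 153 and 168 CPM in LP. All HP libraries lay just below all LP libraries, by a log2 fold change of -0.10 (SE 0.047, unadjusted p = 0.06, edgeR adjusted p = 0.82). Map1lc3b stood at 214, 199.6 and 192 CPM in HA, 215, 197 and 203 CPM in HP, and 204, 216 and 219.6 CPM in LP. These ranges overlapped, with an interval of -11.4% to 4.21% for HP against LP (log2 fold change -0.06, SE 0.053, edgeR adjusted p = 0.904). Gabarap stood at 132, 134 and 138 CPM in HA, 142, 142 and 132 CPM in HP, and 134, 139 and 149 CPM in LP. Gabarapl2 stood at 156, 155 and 148 CPM in HA, 155, 155 and 157 CPM in HP, and 149.9, 161 and 147 CPM in LP. Neither gene separated any pair of groups. Exons of Gabarapl1 overlap an antisense gene of 14.8 mean counts over 28.3% of their length, and Gabarapl2 has pseudogenes of at most 12.1 mean counts. Of the 5 ATG8 genes, 4 had a lower estimate in HP against LP and 4 in HA against HP, with medians of -0.06 and -0.02 on the log2 scale.

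Cargo receptors link ubiquitin-tagged cargo to ATG8 proteins. Sqstm1 encodes p62, which is itself degraded by autophagy, Nbr1 a receptor of aggregates and peroxisomes, and Optn (optineurin) a receptor of damaged mitochondria. Sqstm1 gave at least 83.1% of their summed FPKM in each library, with a median of 84.4%. It stood at 627, 614 and 597 CPM in HA, 631, 609 and 634 CPM in HP, and 623, 565 and 603 CPM in LP. LP replicate 2 was lowest and the groups overlapped. The log2 fold changes of Sqstm1 were 0.07 in HP against LP, -0.03 in HA against HP and 0.04 in HA against LP (SE 0.048 each), with edgeR adjusted p of 0.886, 0.928 and 0.906. Its interval in HP against LP was -2.87% to 12.7%. Sqstm1 shares 580 exonic bases with the antisense gene Mrnip, and the mean counts were 11938 for Sqstm1 and 127 for Mrnip. Nbr1 and Optn averaged 25.4 and 8.10 FPKM, and their log2 estimates lay between -0.09 and 0.05 over the 3 comparisons.

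Of the MiT/TFE factors, which bind E-box letters in the CLEAR element of lysosomal genes, Tfe3 averaged 4.09 FPKM, Tfeb 2.72 FPKM and Mitf 1.12 FPKM. Tfeb stood at 15.6, 15.5 and 15.9 CPM in HA, 14.9, 15.2 and 16.7 CPM in HP, and 15.1, 14.9 and 15.5 CPM in LP. Its groups overlapped, with an interval of -8.95% to 16.6% in HP against LP (log2 fold change 0.04, SE 0.080, edgeR adjusted p = 0.96). Mitf, the melanocyte factor of the family, stood at 7.87, 6.42 and 7.83 CPM in HA, 6.01, 8.09 and 6.48 CPM in HP, and 5.8, 7.63 and 6.45 CPM in LP. High and low libraries occurred in every group, and at 108 to 171 counts a library the interval for HP against LP ran from -19.3% to 32.9% (log2 fold change 0.05, SE 0.162, edgeR adjusted p = 0.975). The 5 melanocyte markers summed to 2.44 to 2.93 CPM in HA, 2.07 to 2.3 CPM in HP and 1.67 to 2.32 CPM in LP. Of them Mlana was at 0 in 1 library and Tyr in 3, and the part of melanocytes in the level of Mitf was not tested.

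The LAMP proteins are the main glycoproteins of the lysosomal membrane, and Lamp2 is needed for fusion and for chaperone-mediated autophagy. Lamp1 averaged 186 FPKM and Lamp2 11.6 FPKM. Their deposited lengths were 2675 and 9552 bases and their mean counts 9774 and 2167, so the gap is wider per length than in counts. Lamp1 stood at 506, 484 and 485 CPM in HA, 512, 526 and 505 CPM in HP, and 471, 516 and 498 CPM in LP. The groups overlapped, and the log2 fold change was 0.05 (SE 0.046, edgeR adjusted p = 0.894) in HP against LP and -0.06 (SE 0.046, edgeR adjusted p = 0.842) in HA against HP. Lamp2 stood at 103, 106 and 138 CPM in HA, 109, 113 and 103 CPM in HP, and 97.7, 111 and 121 CPM in LP. HA replicate 3 and LP replicate 3 were the highest libraries of Lamp2, and they were also the highest in meningeal fibroblast markers, with sums of 865 and 356 CPM. The same libraries, in that order, were highest in sums of markers of endothelium (218 and 168 CPM), choroid plexus (35.0 and 42.6 CPM) and anterior pituitary (21.9 and 6.83 CPM). For endothelium, HP replicate 3 was close behind at 167 CPM. Single markers did not all follow these sums. In LP replicate 3, Ttr (2.58 CPM) and Kl (25.7 CPM) were the highest of the 9 libraries. Pecam1 (19.6 CPM), Folr1 (0.323 CPM) and Clic6 (14.0 CPM) were the lowest there. In HA replicate 3, Gh alone held 16.2 CPM of the pituitary sum. The part of any of these cells in the level of Lamp2 was not tested. The log2 fold change of Lamp2 was 0.09 (SE 0.110, edgeR adjusted p = 0.901) in HA against HP and -0.05 without HA replicate 3. In HA against LP it was 0.07 (SE 0.110, adjusted p = 0.915) and -0.07 without HA replicate 3, and in HP against LP it was -0.02 (SE 0.110, adjusted p = 0.991) and 0.06 without LP replicate 3.

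**Figure D2:**
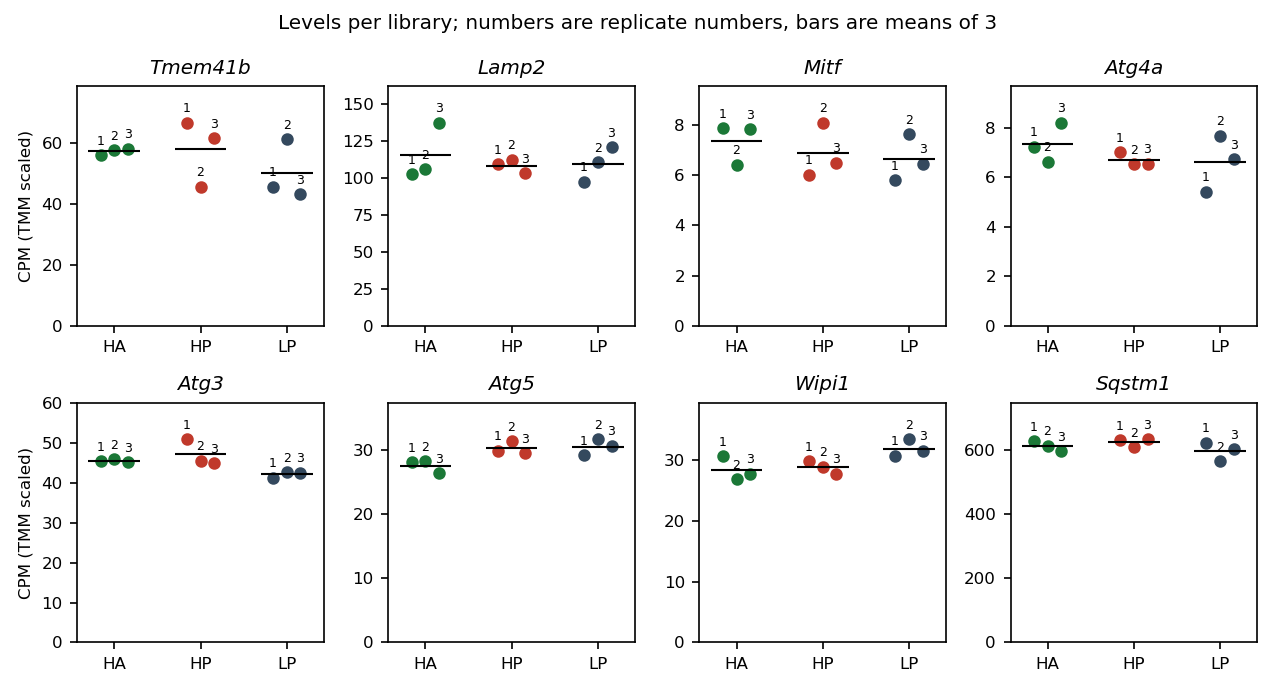
CPM per library (linear axes from 0) of 8 members in HA, HP and LP, with replicate numbers above the points and bars at the group means. Tmem41b is low in HP replicate 2 and in LP replicates 1 and 3, Lamp2 is highest in HA replicate 3, Wipi1 is lower in all HP libraries than in all LP libraries, and Sqstm1 overlaps in all groups.

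Because TFEB and its relatives bind E-boxes, the start sites of members were searched for the letters CACGTG, which read the same on both strands. Windows of 250 bases before each start site came from a RefSeq table on GRCm38.p6, which matched 33 of the 39 members with 41 windows. Map1lc3a, Atg12, Atg16l1, Rb1cc1, Pik3c3 and Becn1 had no entry. The letters stood in 4 of 41 member windows (9.76%), against 1978 of 32851 windows of all genes (6.02%). The 4 genes were Lamp1, Atg3, Atg5 and Atg7. The longer letters CACGTGAC or their complement GTCACGTG, which contain the shorter ones, stood in 3 of 41 member windows (7.32%) and in 1.85% of all windows. A match is a description of the letters and not a site. The stretches before the starts of Lamp1, Atg3 and Atg5 are shown because Lamp1 holds 4 matches, and Atg3 and Atg5 had the smallest p of the members in HP against LP and HA against HP. Capitals mark CACGTG. All are read 5′ to 3′ on the plus strand of GRCm38.p6 (RefSeq), at chr8:13159011-13159160 for Lamp1, chr16:45158635-45158784 for Atg3 and chr10:44268189-44268338 for Atg5.
Lamp1: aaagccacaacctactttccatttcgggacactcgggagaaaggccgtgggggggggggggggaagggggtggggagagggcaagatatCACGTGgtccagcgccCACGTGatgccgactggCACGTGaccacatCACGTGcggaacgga
Atg3: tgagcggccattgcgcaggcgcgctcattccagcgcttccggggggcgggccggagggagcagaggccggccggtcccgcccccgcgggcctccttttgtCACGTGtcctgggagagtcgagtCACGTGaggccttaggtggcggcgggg
Atg5: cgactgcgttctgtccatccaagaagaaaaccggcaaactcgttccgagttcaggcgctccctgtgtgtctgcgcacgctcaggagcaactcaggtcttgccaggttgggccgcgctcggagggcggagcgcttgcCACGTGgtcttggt

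The 4 matches of Lamp1 lie 61, 45, 28 and 15 bases before its start site, counted from the first letter of the match. Those of Atg3 lie 94 and 71 bases before the RefSeq start, and that of Atg5 14 bases before. The stretches of Lamp1 and Atg5 end at their start sites, while that of Atg3 stops 44 bases short of its RefSeq start, ahead of exons annotated in GENCODE. The window of Atg7 precedes a start site inside the gene and is not shown. Shares for genes of the lysosome outside the 39 are given for comparison. The 6 letters stood in 11 of 35 windows of lysosomal hydrolases and activators (31.4%), in 4 of 20 windows of other lysosomal membrane proteins and in 2 of 16 windows of V-ATPase subunits (12.5%). The difference between lists was not tested.

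**Figure D3:**
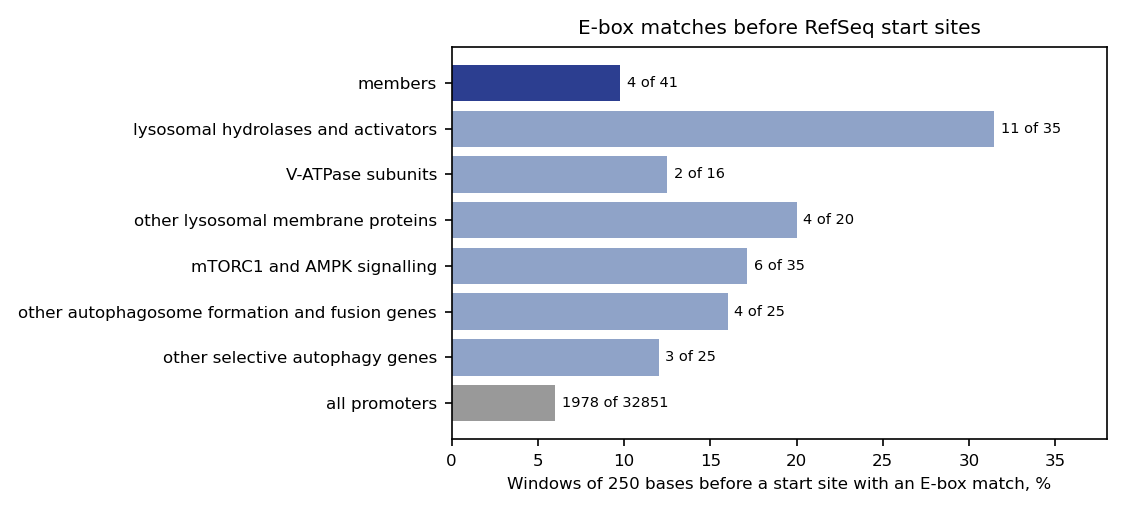
Percent of windows of 250 bases before RefSeq start sites that hold an E-box match, for the members, the 6 other lists and all promoters, with the number of windows beside each bar. The members stand at 9.76%, lysosomal hydrolases and activators at 31.4% and all promoters at 6.02%.

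The comparison of HP with LP sets the diets of the dams against each other. EdgeR called 0 of 39 members at an adjusted p under 0.05, where it called 0.0114% of the 17546 genes tested, and DESeq2 and limma-voom also called 0. At an unadjusted p under 0.05, 1 member passed (2.56%), against 6.12% of all genes. All HP libraries lay above all LP libraries for 1 member, Atg3, against 5.93% of all genes, and below them for 2, Map1lc3a and Wipi1, against 5.83%. These shares are near or under the background. The median log2 fold change of the members was -0.02, against -0.002 for all genes tested. Higher estimates in HP were found for 13 of 39 members (33.3%), against 49.1% of all genes. Estimates lay between -0.15 and 0.21. The 95% interval stayed within 25% in either direction for 36 of 39 members, and the exceptions were Tmem41b, Atg4a and Mitf.

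The comparison of HA with HP sets 4-PBA against PBS in pups whose dams ate high fat and high sucrose. EdgeR called 0 of 39 members, where it called 0.0114% of all genes, and DESeq2 and limma-voom called 0. No member had an unadjusted p under 0.05, against 5.42% of all genes. HA libraries lay above all HP libraries for 0 members, against 5.92% of all genes, and below them for 2, Atg5 and Atg16l1, against 5.89%. The median log2 fold change was -0.02, against 0.003 for all genes, with a range of -0.14 to 0.14. Higher estimates in HA were found for 13 of 39 members (33.3%), against 50.9% of all genes. Intervals stayed within 25% for 35 members, and the exceptions were Atg10, Atg4a, Mitf and Lamp2.

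HA differed from LP in both the diet of the dam and the injected compound. EdgeR called 0 of 39 members and 0% of all genes, and DESeq2 and limma-voom called 0 members. An unadjusted p under 0.05 was reached by 2 members (5.13%), Wipi1 and Atg5, against 6.51% of all genes. HA lay above LP in all libraries for 1 member, Atg3, against 5.4% of all genes, and below it for 5, against 5.51%. The 5 were Atg101, Atg9a, Wipi1, Atg5 and Atg4c, or 5 of 39, a share above that of all genes. Whether this share differs from that of all genes was not tested. The median log2 fold change was -0.03, against 0.006 for all genes, with a range of -0.17 to 0.19. Higher estimates in HA were found for 15 of 39 members (38.5%), against 51.9% of all genes. Differences in these shares of higher estimates were not tested in any comparison. Intervals stayed within 25% for 36 members, and Tmem41b, Atg4a and Mitf were the exceptions. These comparisons share libraries, so the same gene can appear in several of them through 1 group. A p that misses the threshold does not show that the groups were alike, and the intervals give the differences these libraries leave possible.

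**Figure D4:**
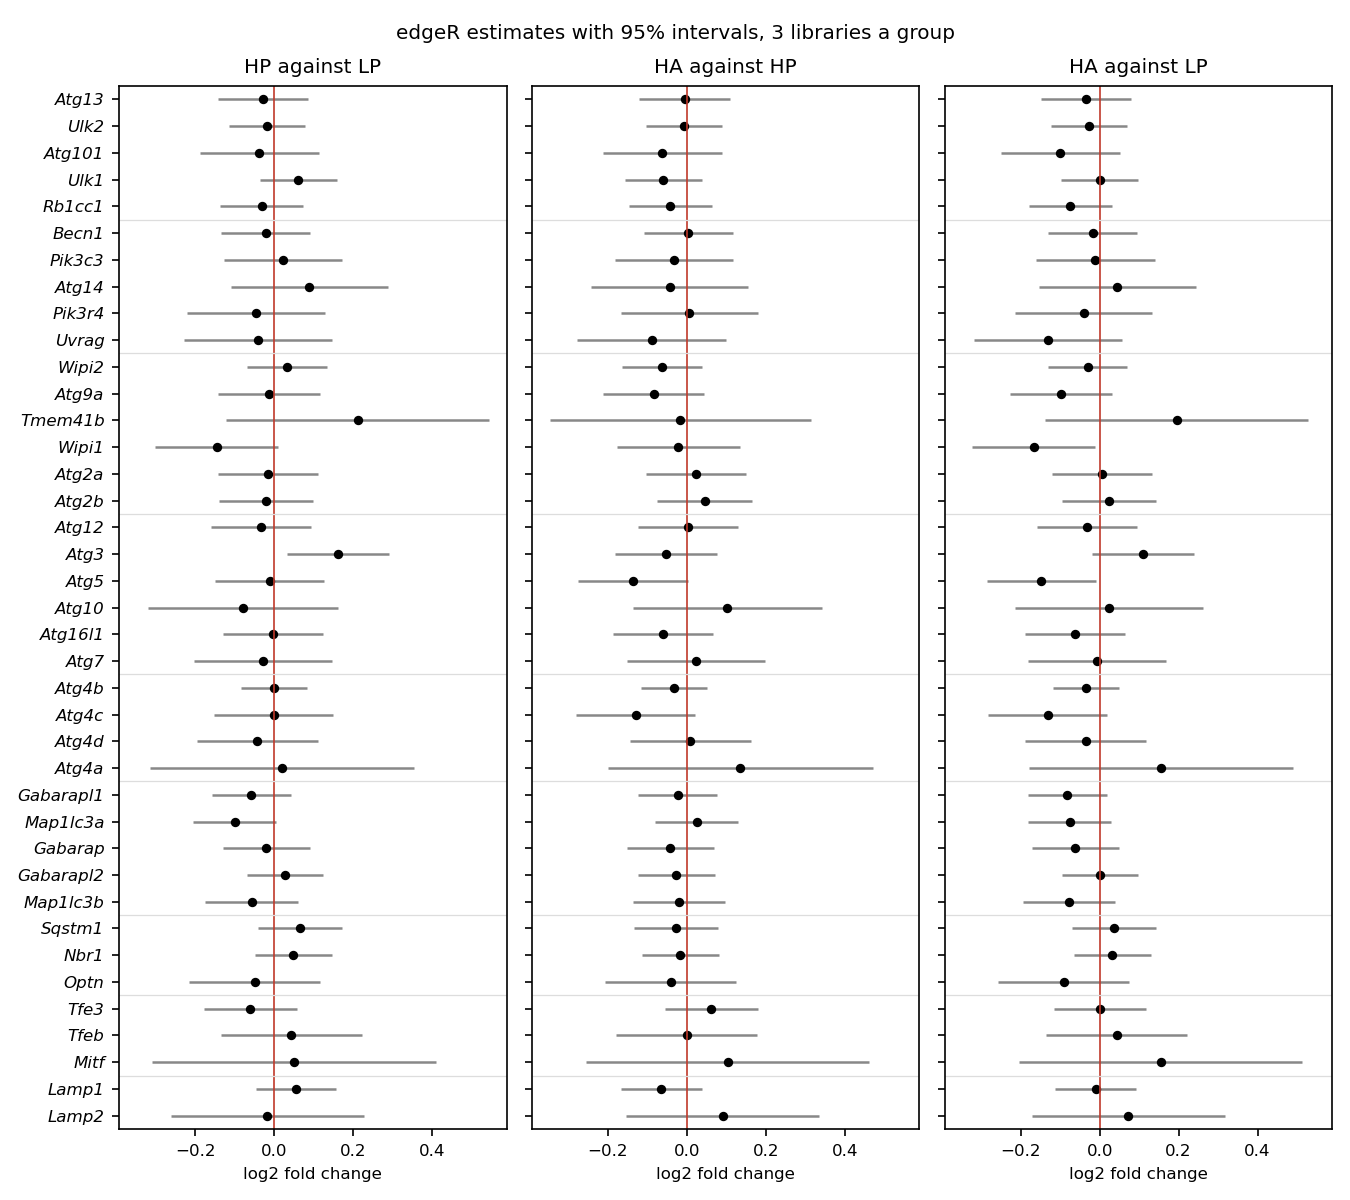
EdgeR log2 fold changes of the 39 members with 95% intervals (lines) for the 3 comparisons, ordered by role as in the plot of levels. Most intervals include 0 and stay within 25% in either direction, and those of Tmem41b, Atg4a and Mitf are the widest.

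Members varied little from library to library. Their median CV over the 9 libraries was 4.47%, against 9.6% over all 17546 genes and 6.66% over the 11459 genes within the members' range of mean counts. A CV under 10% was found in 35 of 39 members (89.7%), in 51.6% of all genes and in 76.3% of genes within that range. The median member had 1077 counts, against 755 for genes within the range, and more counts give less counting error. The 4 members at or above 10% were Tmem41b (15.1%), Mitf (12.8%), Atg4a (11.5%) and Lamp2 (10.7%). Mitf and Atg4a were the members with fewest counts, while Tmem41b and Lamp2 had means of 1077 and 2167 counts.

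**Figure D5:**
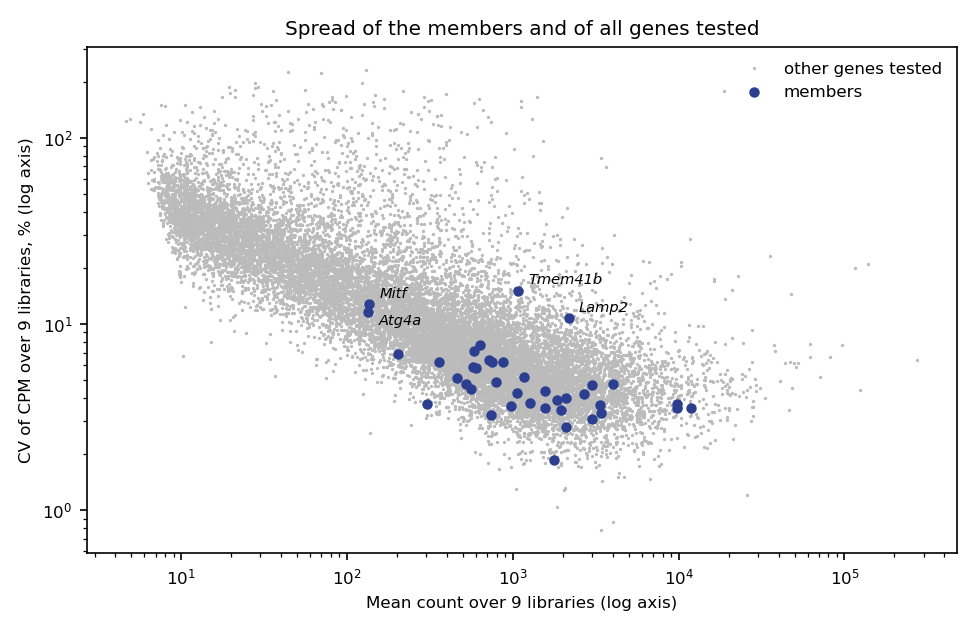
CV of CPM over the 9 libraries (log axis, in percent) against mean count (log axis) for the 39 members (blue) and all other genes tested (grey). The 4 members above 10%, Tmem41b, Mitf, Atg4a and Lamp2, are named, and the other 35 lie below 10%.

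Other genes of the pathway, 158 on 6 lists, were all tested, and edgeR called 0 of them in each comparison. The lists were 40 lysosomal hydrolases and activators, 18 V-ATPase subunits, which acidify the lysosome, 21 other lysosomal membrane proteins, 34 genes of mTORC1 and AMPK signalling, which sense nutrients upstream of ULK1, 24 other genes of autophagosome formation and fusion, and 21 other genes of selective autophagy. In HP against LP, 3 of the 158 had an unadjusted p under 0.05 with a higher estimate and 2 with a lower one, against 3.12% and 3% of all genes. In HA against HP the counts were 4 higher and 2 lower, against 3% and 2.42%, and in HA against LP 4 higher and 7 lower, against 3.06% and 3.45%. List medians lay between -0.019 and 0.029 in HP against LP, between -0.056 and 0.015 in HA against HP and between -0.038 and 0.04 in HA against LP.

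Man2b2, which encodes a lysosomal mannosidase, had the smallest p of the 158 in HA against HP. It stood at 31.6, 26.5 and 30.2 CPM in HA, 15.5, 15.6 and 16.0 CPM in HP, and 27.5, 15.0 and 17.4 CPM in LP. HA lay above HP in every library, and LP replicate 1 lay within the range of HA. The log2 fold change in HA against HP was 0.91 (SE 0.188, edgeR adjusted p = 0.84), and DESeq2 called it (adjusted p = 0.00154). Genes of smallest p on a list in HP against LP were Atp6v0a2, Scarb2, Lamtor1 and Vps11, with edgeR adjusted p between 0.81 and 0.848. In HA against HP they were Atp6v1h, Tpcn1, Lamtor3, Vamp8 and Retreg1, each with an edgeR adjusted p of 0.84. In HA against LP they were Man2b2, Atp6v0a2, Tpcn1, Rragd and Vps11, with edgeR adjusted p between 0.719 and 0.761. Retreg1, a receptor for autophagy of the endoplasmic reticulum, stood at 66.6 ± 4.85 CPM in HA and 74.0 ± 1.46 CPM in HP (SD, n = 3 each), with all HA libraries below all HP libraries. Lamtor3, a subunit of the Ragulator scaffold, stood at 38.9 ± 1.44 CPM in HA and 42.4 ± 0.505 CPM in HP (SD, n = 3 each), also without overlap. All HA libraries lay below all HP libraries for 3 of 21 genes on the list of Retreg1 and 2 of 34 on that of Lamtor3, against 5.89% of all genes. They lay above for 4 of 40 genes on the list of Man2b2, against 5.92% of all genes.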

How the data were processed

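The authors deposited raw read counts per gene, as whole numbers, together with FPKM in each of 9 libraries. HISAT2 2.0.5, featureCounts 1.5.0-p3 and also DESeq2 1.16.1 are listed in the submitters' processing notes. The deposited FPKM matched counts divided by gene length and library total (ratio 0.981 to 1.01, lowest and highest percentile left out). The notes name mm9, but 38 of 39 members have their deposited start and end in GENCODE M21 of GRCm38, as do 98.3% of shared genes. The kit is not described as stranded, so reads of overlapping genes on opposite strands cannot be told apart.

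Counts were fitted with edgeR 4.0.16 in R 4.3.3 (filterByExpr, TMM, quasi-likelihood F test, group as the only term, all 9 libraries), with two-sided p-values adjusted by Benjamini-Hochberg over 17546 genes at a threshold of 0.05. The common dispersion was 0.0199. Each SE was taken as the size of the log2 estimate over the root of its F, and 95% intervals use the degrees of freedom of that test. CPM values use TMM-scaled library sizes. The fit was tested on simulated data. DESeq2 1.42.0 and limma 3.58.1 (voom, and log2(FPKM + 1) or log2(FPKM + 0.1)) were alternatives. An exact permutation test of 3 against 3 cannot go below p = 0.1 and was not used.

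Members, lists and rules were chosen with earlier results of these data known. Values in every library are given for the 4 members of smallest p in each comparison, the members of highest and lowest FPKM, the ATG8 genes, and Sqstm1, Map1lc3b, Tfeb, Mitf, Ulk1, Becn1, Lamp1 and Lamp2. From the other lists the gene of smallest p is named, apart from genes that are not reported here. The CV of Atg4b, Atg4a and Uvrag and the overlaps were chosen after their values were seen. Overlaps with other genes come from GENCODE M21 exons, and near copies from BLAST 2.17.0+ of each member's longest transcript (at least 300 bases at 95% identity).

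Library pairs of a group differed by more than sampling noise (chi-square per degree of freedom 4.73 to 25.8), so all 9 were kept. Whether pups of 1 group had different dams is not given in the sources used here, and p-values then measure only the spread among the libraries at hand. Same-numbered libraries deviated together with correlations of 0.256, 0.144 and 0.486 between HA and LP, all above 0.1. HA replicate 2, at 0.144, correlated more with an LP library of another number (0.251). The value of 0.486 joins HA replicate 3 and LP replicate 3, the libraries highest in meningeal fibroblast markers. The numbers come from the titles, which do not say what they mark.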

Additional observations from a re-analysis of the deposited data

How the results depend on the processing

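EdgeR, DESeq2 and limma called 0 members in each comparison under all 20 alternatives (21 for HA against HP), and the lowest adjusted p of a member was 0.585. With 1 library left out the count stayed at 0. Where the replicate block was fitted, 0 members were called in each comparison and it changed no call. This includes HA against LP, where all same-numbered correlations exceeded 0.1. There HA replicate 2 still correlated more with an LP library of another number (0.251) than with its own (0.144). Same-numbered deviations correlated at 0.137, -0.0276 and 0.159 between HP and LP, which share only a number, so those of replicates 1 and 3 also exceeded 0.1. Between HA and HP, whose same-numbered libraries also share a title code, they correlated at 0.0817, 0.00387 and 0.118, with replicate 3 above 0.1. Neither HA replicate 2, set against HP, nor HP replicate 2, set against LP, correlated best with its own number. Of 486 alternative estimates of the 24 fold changes given, 472 kept their direction and 14 changed sign, with 0 called. The median log2 fold change of members in HP against LP lay between -0.026 and 0.00734 with 1 library left out, was 0.000891 without both LP replicate 3 and HA replicate 3, and 0.00602 without both LP replicates 1 and 2. In HA against HP it lay between -0.0428 and -0.0061 with 1 library left out and was -0.00226 with library totals only. Its cause was not tested.

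Changes of sign without both LP replicate 3 and HA replicate 3 gave Lamp2 -0.0505 in HA against HP and 0.058 in HP against LP. Without both LP replicates 1 and 2, Becn1 was 0.0406 in HP against LP and Lamp2 -0.0746 in HA against LP. With 1 library left out, estimates in HP against LP lay between -0.0551 and 0.0162 for Becn1, -0.0951 and 0.0581 for Lamp2, -0.0864 and 0.165 for Mitf, and -0.00746 and 0.0779 for Tfeb. They lay between -0.0504 and 0.164 for Lamp2 in HA against HP, and in HA against LP between -0.0703 and 0.153 for Lamp2 and -0.00477 and 0.0659 for Sqstm1. Leaving out 1 library also moved other small estimates by over 1.5 times with no change of sign, as for Lamp1 in HP against LP (without LP replicate 1, 0.0202), Map1lc3b (without HP replicate 2, -0.0316) and Sqstm1 (without LP replicate 2, 0.0265).

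Of the pathway lists, 1 gene, Man2b2, was called in HA against HP under 6 alternatives, which were DESeq2, no filter on low counts, the 6 libraries of HA and HP with or without the title code as a term, and the fits without LP replicate 1 or without LP replicates 1 and 2 (adjusted p between 0.00154 and 0.0486). With 1 library left out the number called lay between 0 and 1. In the other comparisons it stayed at 0. Counts of 108 to 171 for Mitf and 111 to 162 for Atg4a limit what can be seen of them.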
